A study of Mus musculus with 4 samples.

Results

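Where JunB and IRF4 sit in the genome of activated regulatory T (Treg) cells was compared from the peak lists of 2 chromatin immunoprecipitation-sequencing (ChIP-seq) libraries, with peaks sorted by overlap between the lists and by gene annotation. The comparison covered 60752 peaks, 29659 of JunB and 31093 of IRF4, out of 103355 peaks in the 4 lists of the series. A JunB peak that shared at least 1 bp with an IRF4 peak was counted as shared. By this rule 12698 JunB peaks (42.8%) were shared and 16961 (57.2%) were not, whereas 12518 IRF4 peaks (40.3%) were shared and 18575 (59.7%) were not. The 3 classes followed here are thus shared peaks, unshared JunB peaks and unshared IRF4 peaks. Unshared means that no peak of the other factor was listed there, and it does not show that the other factor was absent.

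JunB belongs to the AP-1 family, whose members bind DNA as dimers of leucine zipper proteins, and its partner BATF lacks a transactivation domain of its own. IRF4 is an interferon regulatory factor that binds DNA weakly by itself. It is recruited with AP-1 dimers of BATF and a Jun protein to AP-1-IRF composite elements (AICE), with ETS factors to ETS-IRF composite elements (EICE), and at higher levels to interferon-stimulated response elements (ISRE), the repeated GAAA sites in the promoters of interferon-induced genes. Treg cells restrain immune responses under the control of Foxp3, and after antigen receptor stimulation they can become effector Treg cells, a step for which IRF4 is required.

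ChIP-seq enriches the DNA that a protein occupies with an antibody, and peaks mark where the sequenced fragments pile up. CD4+CD25+ Treg cells were isolated from spleens of C57BL/6 mice and activated for 60 h with anti-CD3 and anti-CD28 antibodies and IL-2. The methods give mice of the study as sex-matched and 6 to 12 weeks old, and do not state whether the cells of several animals were pooled. Junb-sufficient cells gave 1 library each for JunB, BATF and IRF4, and Junb-deficient cells gave 1 for IRF4. Each experiment was performed 2 times according to the methods, and the repeats were not analysed here.

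The sample labels give the genotypes as Foxp3cre JUNB+/+ and Foxp3cre JUNBFl/Fl, in which Cre is made under the Foxp3 gene that marks Treg cells, whereas the study names Junb fl/fl and Cd4Cre Junb fl/fl cells, in which Cre is made in all T cells. For the Junb-sufficient libraries, the antibody field of the labels has BATF where the title has IRF4 and the reverse. Here the sample titles were followed, which match the study's own list of libraries, and values with the antibody field are given where they differ in direction. The list titled IRF4 overlapped 69.6% of the IRF4 peaks of Junb-deficient cells and the list titled BATF overlapped 35.0% of them. Conversely, 65.0% of the peaks titled IRF4 and 74.8% of the 13570 peaks titled BATF overlapped a peak of Junb-deficient cells.

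The JunB and IRF4 lists were not called alike. The JunB library held 27.4 M tags, of which 16.0 M were used, and the IRF4 library held 23.9 M tags, of which 17.3 M were used. JunB peaks were 151 bp wide with a threshold of 10 tags, and IRF4 peaks were 613 bp wide with a threshold of 19 tags. The requirement of a 4-fold excess over the surrounding 10 kb removed 5.25% of candidate JunB peaks and 37.4% of candidate IRF4 peaks. Peaks held 4.27% of the JunB tags and 12.76% of the IRF4 tags. Peak heights were not listed, so odds ratios compared each class with peaks of its own list. Shares and distances are also set side by side across lists. The part of peak width and threshold in those differences was not tested. With 1 library per factor no p-value was computed, and every interval given is a 95% interval for counting error over peaks, which does not cover the spread between experiments.

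Reference sequence around 9 peak centres illustrates what the classes held. The letters are those of mm9, on the plus strand, from 100 bp before to 100 bp after the peak centre, and capitals mark matches to a motif on either strand. The motifs were AP-1 (TGANTCA), the cyclic AMP response element or CRE (TGACGTCA), ETS (CCGGAAG), ISRE (GAAA and again GAAA, 2 bases apart), EICE (GGAA and GAAA, 2 bases apart) and AICE, which joins a TTTC or GAAA unit to an AP-1-like site and can therefore overlap an AP-1 match. The Maml2 peak (intron, chr9:13444206-13444406) is shown for shared peaks, the Jak2 peak (intron, chr19:29331118-29331318) unshared JunB peaks and the Osbpl8 peak (intron, chr10:110651259-110651459) unshared IRF4 peaks. They stood at places 22, 35 and 129 of their lists, as the first-listed peaks outside promoters once multicopy regions were passed over. Each overlapped a BATF peak and an IRF4 peak of Junb-deficient cells. In this the Jak2 peak was not typical, since 5.01% and 5.57% of unshared JunB peaks did so. The BATF overlap of the Osbpl8 peak was not typical either, since 16.5% of unshared IRF4 peaks overlapped a BATF peak. An IRF4 peak of Junb-deficient cells overlapped 57.5% of them. The Maml2 and Jak2 windows held no match, and in the Jak2 window the commonest 8-base word occurred 11 times.
Maml2: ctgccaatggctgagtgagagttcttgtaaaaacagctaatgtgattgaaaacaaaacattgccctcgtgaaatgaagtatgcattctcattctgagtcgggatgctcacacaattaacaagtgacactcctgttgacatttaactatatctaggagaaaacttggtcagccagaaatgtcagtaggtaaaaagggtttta
Jak2: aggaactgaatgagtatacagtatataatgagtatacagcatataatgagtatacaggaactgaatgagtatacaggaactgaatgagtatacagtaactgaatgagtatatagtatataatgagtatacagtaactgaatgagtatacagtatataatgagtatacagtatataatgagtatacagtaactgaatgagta
Osbpl8: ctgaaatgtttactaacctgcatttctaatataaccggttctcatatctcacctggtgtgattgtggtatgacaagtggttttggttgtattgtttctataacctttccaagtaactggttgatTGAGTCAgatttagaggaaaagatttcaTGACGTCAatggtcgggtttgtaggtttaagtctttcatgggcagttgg

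A second set was chosen after the values were seen, to show the motif that went with each class. The shared peak at chr2:8791801-8792001, in intergenic sequence 1003 kb from Gata3 as the nearest protein-coding transcription start site (TSS), held an AICE and stood at place 32 of the JunB list. The shared peak of the Gzmb promoter (chr14:56881098-56881298), 101 bp before the TSS of the gene for granzyme B, held an AP-1 match. The unshared IRF4 peak of the Tcf3 promoter (chr10:79896615-79896815), 323 bp before the TSS of the gene for an E protein, lay in CpG-rich sequence with an ETS match.
Gata3: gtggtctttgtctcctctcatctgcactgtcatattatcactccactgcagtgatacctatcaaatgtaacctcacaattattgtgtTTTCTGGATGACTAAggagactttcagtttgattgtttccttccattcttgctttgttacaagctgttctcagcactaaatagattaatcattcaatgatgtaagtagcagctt
Gzmb: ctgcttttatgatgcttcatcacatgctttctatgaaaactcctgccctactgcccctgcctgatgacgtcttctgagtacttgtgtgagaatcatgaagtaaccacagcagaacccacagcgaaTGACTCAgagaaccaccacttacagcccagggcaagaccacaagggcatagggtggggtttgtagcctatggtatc
Tcf3: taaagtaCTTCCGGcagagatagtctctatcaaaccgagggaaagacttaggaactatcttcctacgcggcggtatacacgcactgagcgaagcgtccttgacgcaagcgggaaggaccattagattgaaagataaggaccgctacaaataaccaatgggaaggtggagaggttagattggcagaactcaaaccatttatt

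The last set shows unshared IRF4 peaks at promoters of interferon-stimulated genes, which are described as a group further on. The windows were those of Stat2 (chr10:127707224-127707424), which encodes a transducer of type I interferon signals, Rsad2 (chr12:27141361-27141561), which encodes the antiviral protein viperin, and Bst2 (chr8:74061389-74061589), which encodes the virus-tethering protein tetherin. Peak centres lay 305, 144 and 153 bp before the TSS. The windows were taken from peaks with an ISRE, which 12 of the 18 unshared IRF4 peaks at these promoters held. In Bst2 there were 2 ISRE matches that overlap. In the Stat2 window an EICE match overlapped the ISRE, and the Rsad2 window held AP-1 and ETS matches as well. A match describes letters in a window and does not show that a factor bound them.
Stat2: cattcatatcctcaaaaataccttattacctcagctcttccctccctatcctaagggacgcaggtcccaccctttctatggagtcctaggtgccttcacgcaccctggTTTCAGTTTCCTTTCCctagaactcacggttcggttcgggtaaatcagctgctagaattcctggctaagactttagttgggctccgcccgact
Rsad2: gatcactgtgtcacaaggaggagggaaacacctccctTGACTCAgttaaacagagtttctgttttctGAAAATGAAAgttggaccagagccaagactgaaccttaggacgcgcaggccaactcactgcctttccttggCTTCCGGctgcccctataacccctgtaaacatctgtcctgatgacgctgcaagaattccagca
Bst2: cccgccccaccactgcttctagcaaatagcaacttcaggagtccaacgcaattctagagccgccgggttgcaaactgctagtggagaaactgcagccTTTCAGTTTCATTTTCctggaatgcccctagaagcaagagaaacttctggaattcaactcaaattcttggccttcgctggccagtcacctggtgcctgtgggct

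Promoters set the classes apart. Unshared IRF4 peaks lay at promoters, taken as 1000 bp before to 100 bp after the TSS of a protein-coding transcript, in 19.8% of cases (3682 peaks, 19.3 to 20.4%). The share was 5.83% among shared IRF4 peaks (730 peaks, 5.43 to 6.26%), 5.88% among shared JunB peaks (747 peaks, 5.48 to 6.31%) and 3.21% among unshared JunB peaks (544 peaks, 2.95 to 3.48%). Promoters made up 1.83% of the genome, so that each class exceeded its background. Over whole lists, 4.35% of JunB peaks and 14.2% of IRF4 peaks lay at promoters.

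**Figure D1:**
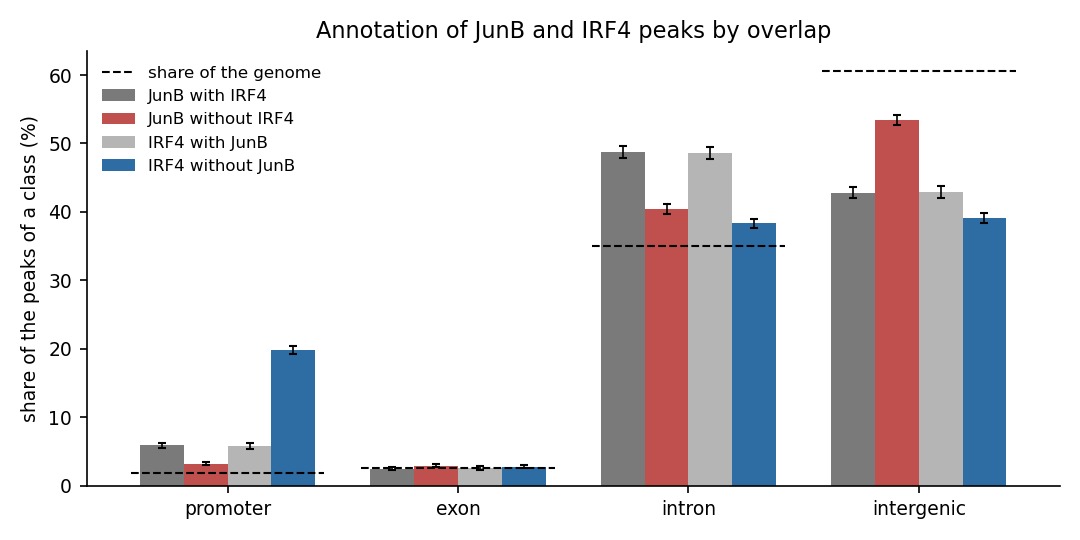
Share of peaks (%) by annotation for the 4 classes, with exact binomial 95% intervals as error bars and the share of the genome as dashed lines. Unshared IRF4 peaks stand out at promoters with 19.8%, and unshared JunB peaks in intergenic sequence with 53.5%.

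Outside promoters the order changed. Unshared JunB peaks were mostly intergenic (53.5%, 52.7 to 54.2%), against 42.8% of shared JunB peaks, 42.9% of shared IRF4 peaks and 39.1% of unshared IRF4 peaks, where intergenic sequence made up 60.5% of the genome. Introns held 48.8% of shared JunB peaks and 48.7% of shared IRF4 peaks, above 40.4% of unshared JunB peaks, 38.3% of unshared IRF4 peaks and 35.0% of the genome. Shared peaks were thus the most intronic class in both lists. Exons held between 2.48% and 2.93% of each class, near the 2.65% of the genome.

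Within the IRF4 list, the odds of lying at a promoter were 3.99 times as high for unshared as for shared peaks (odds ratio, Woolf interval 3.67 to 4.34). With peaks compared within 20 strata of their place in the list the odds ratio was 3.23 (2.93 to 3.57), and it was above 1 on each of 20 chromosomes. The corresponding values were 0.655 (0.626 to 0.686) for introns and 0.853 (0.814 to 0.893) for intergenic sequence. Within the JunB list the promoter odds went the other way, at 0.530 (0.474 to 0.594), and 19 of 20 chromosomes lay below 1. Intergenic odds of unshared JunB peaks were 1.53 times those of shared peaks (1.46 to 1.61), above 1 on 20 of 20 chromosomes, and intron odds 0.711 times (0.679 to 0.745). The low promoter odds of unshared JunB peaks were not seen in the first-listed 50% of the lists, where the ratio was 0.965, and the ratio was 1.14 with the antibody field in place of the titles. With that exchange the promoter odds ratio of unshared IRF4 peaks was 2.58.

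**Figure D2:**
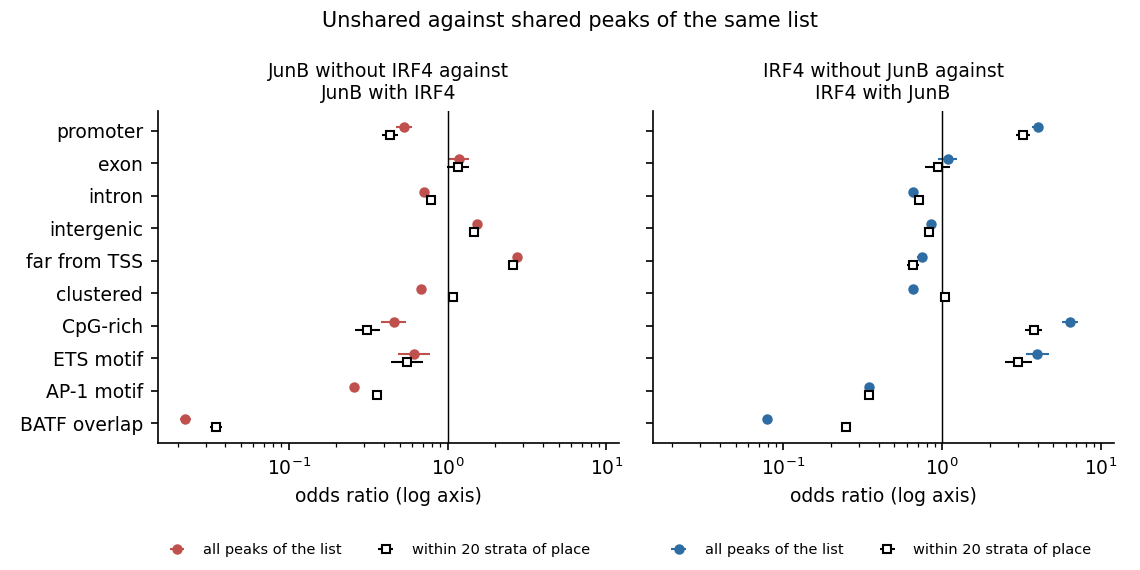
Odds ratios on a log axis of unshared against shared peaks of the JunB list (left) and of the IRF4 list (right), with 95% intervals, over all peaks (filled) and within 20 strata of place in the list (open squares). Promoter odds lie on opposite sides of 1 in the lists (0.530 and 3.99), and the ratio for clustering moves across 1 once place is held.

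Exons and introns were examined for position within the gene. Of the peaks in exons, 3′ untranslated regions took 50.8% of shared JunB peaks (160 of 315), 56.1% of unshared JunB peaks (279 of 497) and 42.5% of unshared IRF4 peaks (220 of 518). Their 5′ untranslated regions took 4.44%, 2.62% and 10.8%. The first intron took 45.8%, 42.8% and 43.7% of the intronic peaks. Exon odds of unshared against shared JunB peaks were 1.19 (1.03 to 1.37), and within strata of place 1.16 (0.995 to 1.36). Exon odds in the IRF4 list were 1.08 (0.941 to 1.25).

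Place in the list mattered for these shares. The headers do not name the order, and shared peaks stood early in both lists. Their median place was 28.6% of the way down the JunB list and 23.0% down the IRF4 list, against 62.7% and 66.1% for unshared peaks. When the IRF4 list was cut into 10 parts of like size, part 1 held 101 unshared peaks, and 9.90% of these lay at promoters (4.85 to 17.5%). The share was 25.8% in part 6 (24.0 to 27.6%) and 13.9% in part 10 (12.6 to 15.2%). Shared IRF4 peaks followed a similar course at a lower level, with 3.72%, 9.08% and 4.98% in those parts. Unshared JunB peaks stayed between 2.80% and 3.69% in all 10 parts, whereas shared JunB peaks went from 3.02% in part 1 to 12.54% in part 10 (9.95 to 15.5%). In the first part of the JunB list, therefore, the promoter shares of shared and unshared peaks were 3.02% and 3.19%, within their intervals.

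**Figure D3:**
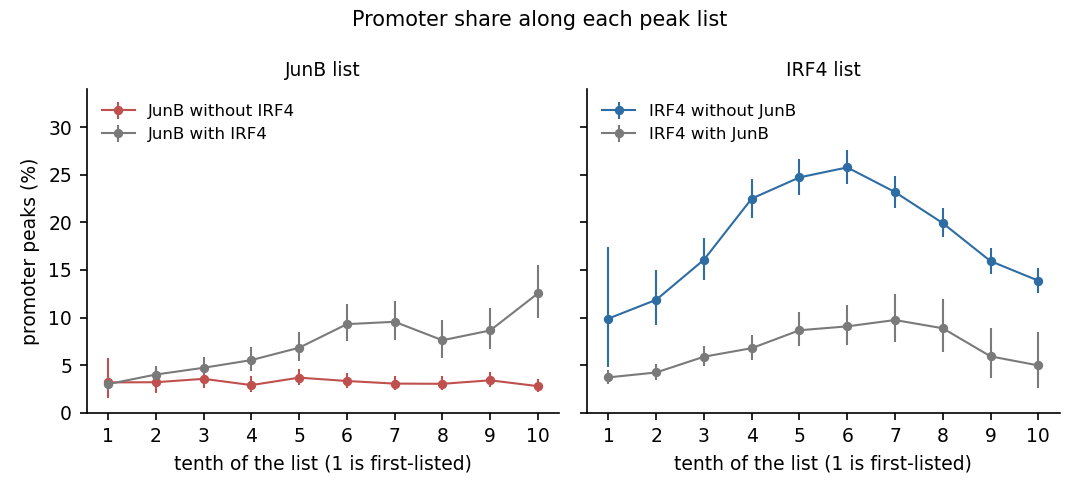
Promoter share (%) in 10 parts of like size of the JunB list (left) and the IRF4 list (right), with exact binomial 95% intervals. Unshared IRF4 peaks lie above shared IRF4 peaks in each part and reach 25.8% in part 6, and shared JunB peaks part from unshared ones toward the end of the list.

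Distances to the TSS told the classes apart beyond the promoter. The median distance to the nearest protein-coding TSS was 12.3 kb for unshared IRF4 peaks, 19.1 kb for shared peaks and 33.4 kb for unshared JunB peaks. More than 100 kb separated 29.3% of unshared JunB peaks from any such TSS (4965 peaks), against 13.1% of shared JunB peaks (1669) and 10.1% of unshared IRF4 peaks (1874). The odds ratio for such distant peaks was 2.74 (2.57 to 2.91) within the JunB list and 0.741 (0.690 to 0.795) within the IRF4 list, and the former was above 1 on 20 of 20 chromosomes. Within 1 kb of a TSS lay 22.8% of unshared IRF4 peaks, 7.69% of shared JunB peaks and 4.73% of unshared JunB peaks.

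Close to the TSS the peaks were not spread evenly. Of the 4232 unshared IRF4 peaks within 1 kb, 71.4% were centred upstream (70.0 to 72.7%), 49.2% lay within 100 bp (47.7 to 50.7%) and the median position was -50 bp. Of the 976 shared JunB peaks there, 67.5% were upstream and 27.5% within 100 bp (24.7 to 30.4%). For the 803 unshared JunB peaks the values were 58.4% and 21.2% (18.4 to 24.2%). A TSS within 100 bp was thus more often found for unshared IRF4 peaks than for either JunB class, with intervals that did not overlap. Among the shared IRF4 peaks within 1 kb, which were as wide as the unshared ones, the share within 100 bp was 27.3%.

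**Figure D4:**
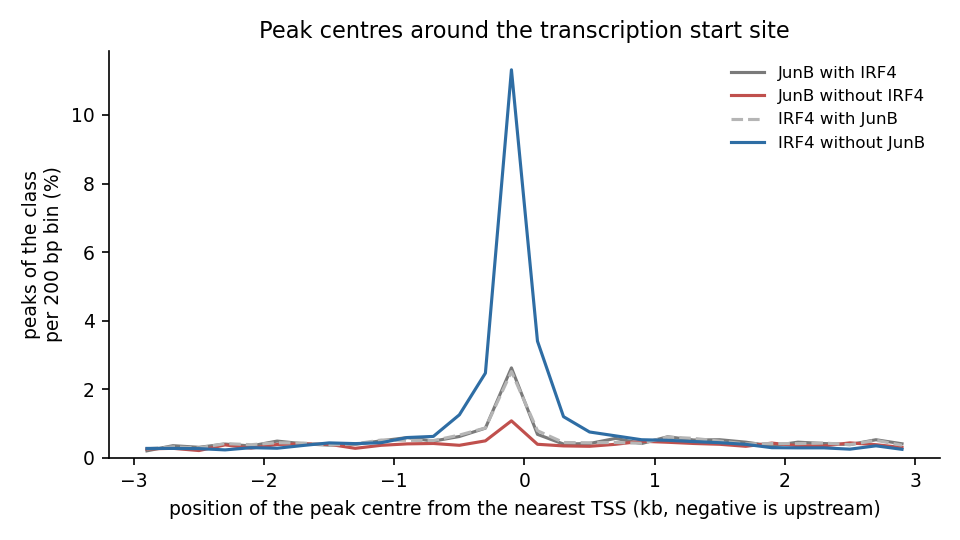
Share of the peaks of each class (%) in 200 bp bins of the distance from the peak centre to the nearest protein-coding TSS (kb, negative upstream). Unshared IRF4 peaks form a sharp summit just upstream of the TSS, and the shared classes and unshared JunB peaks form lower ones at the same position.

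Peaks of one list often lay near each other. Another JunB peak was centred within 12500 bp of 54.4% of shared and 44.8% of unshared JunB peaks (odds ratio 0.681, 0.650 to 0.713). In the IRF4 list this was 52.5% of shared and 41.9% of unshared peaks (0.653, 0.624 to 0.683). Held within strata of place, the ratios were 1.08 (1.02 to 1.14) and 1.05 (0.986 to 1.11), so unshared peaks did not cluster less there. The cause of this shift was not tested. At 5 kb, 30.0% of shared and 30.5% of unshared JunB peaks had such a neighbour.

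Chains of JunB peaks no more than 12500 bp apart formed 5142 clusters, of which 65.6% held both shared and unshared peaks. IRF4 peaks formed 5838 clusters, of which 51.2% were mixed. The JunB cluster with the most peaks held 51 in 158 kb of chromosome 5 near Gm10354, of which 49 were unshared, and the next held 39 near 4930572O03Rik, of which 38 were unshared. Both names are provisional gene symbols. The largest IRF4 cluster was found at Il6st on chromosome 13, which encodes gp130, the signal-transducing chain of IL-6 family receptors. It held 13 peaks, 11 of them shared, over 90.2 kb. JunB formed a cluster of 17 peaks at the same gene, 11 of them shared. Egr2, a transcription factor gene induced by antigen receptor signals, lay near 12 IRF4 peaks, 8 of them shared. The Cd69 region, named for an early activation marker, held 17 JunB peaks of which 5 were shared.

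Unshared peaks differed in how near the other factor was. The nearest IRF4 peak was a median of 18.6 kb from an unshared JunB peak, and 8.69% had one within 1 kb. By annotation the median was 5.48 kb at promoters, 9.86 kb in introns and 50.9 kb in intergenic sequence. An IRF4 peak lay within 100 kb of 57.1% of the intergenic ones. The nearest JunB peak was a median of 22.7 kb from an unshared IRF4 peak, with 2.73% within 1 kb, and here promoters were the most isolated with 29.1 kb. The minimum spacing of IRF4 peaks, 1224 bp, and the local filter can leave an IRF4 peak unlisted beside a stronger one, and their part in these distances was not tested.

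AP-1 matches went with sharing. Within 100 bp of the centre 47.3% of shared JunB peaks held TGANTCA, against 18.8% of unshared JunB peaks (odds ratio 0.259, 0.246 to 0.273) and 22.9% of unshared IRF4 peaks (0.346 against shared IRF4 peaks, 0.330 to 0.364). Windows placed 5 kb further along, away from any peak, held it in 5.66% to 6.12% of cases. AICE matches, such as that of the Gata3 window, followed the same order with 5.42% of shared JunB peaks, 1.62% of unshared JunB peaks and 2.23% of unshared IRF4 peaks, against 0.157% to 0.235% of the displaced windows. These ratios were below 1 on each of 20 chromosomes for AP-1 in both lists. Along the JunB list the AP-1 share of unshared peaks went from 46.0% in part 1 to 12.8% in part 10. That of shared JunB peaks went from 57.7% to 37.8% over the same parts. Along the IRF4 list the AP-1 share of unshared peaks stayed between 20.8% and 24.8%. Within strata of place the AP-1 odds ratios were 0.362 (0.342 to 0.383) in the JunB list and 0.346 (0.326 to 0.369) in the IRF4 list.

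Shared and unshared IRF4 peaks held AP-1 matches less often at promoters than elsewhere, and unshared IRF4 promoter peaks were more often CpG-rich than those of the other classes. Of the unshared IRF4 peaks at promoters 6.93% held an AP-1 match, 19.3% an ETS match and 46.4% a GC box (GGGCGG), and 67.0% were CpG-rich, meaning that the sequence up to 250 bp on each side of the centre had a GC share of at least 0.5 and an observed to expected CpG ratio of at least 0.6. Windows centred on the most upstream start site of each of 22367 protein-coding genes gave 4.16%, 9.39%, 40.0% and 47.6%. Shared JunB peaks at promoters gave 28.6% for AP-1, 9.37% for ETS and 36.0% for CpG-rich sequence. Unshared JunB peaks at promoters gave 16.4%, 7.54% and 27.8%. Even among promoter peaks, then, unshared IRF4 peaks had lower AP-1 odds than shared IRF4 peaks (0.188, 0.153 to 0.231), higher ETS odds (2.23, 1.72 to 2.88) and higher odds of CpG-rich sequence (3.32, 2.82 to 3.91). The Tcf3 and Gzmb windows printed above show the contrast.

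Away from promoters, 26.9% of unshared IRF4 peaks held an AP-1 match and 10.9% an ISRE, against 47.3% and 9.32% of shared IRF4 peaks. The ISRE odds of unshared peaks were 1.19 times those of shared ones there (1.10 to 1.29), whereas at promoters they were 0.612 times (0.447 to 0.838). Displaced windows held an ISRE in 2.54% to 3.48% of cases, and start-site windows in 2.08%. EICE matches were found in 3.94% of unshared IRF4 peaks, 3.28% of shared JunB peaks and 2.32% of unshared JunB peaks, against 1.76% to 2.16% of displaced windows. The RUNX motif TGTGGT was found in 24.6% of shared JunB peaks, 15.9% of unshared JunB peaks and 21.7% of unshared IRF4 peaks, against 14.2% to 15.6% of displaced windows. Unshared JunB peaks were close to the displaced windows in both, and their median GC content, 37.5%, was the lowest of the classes, with 42.5% for shared JunB peaks and 45.9% for unshared IRF4 peaks.

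The remaining lists were laid over the same classes. A BATF peak overlapped 70.3% of shared JunB peaks (69.5 to 71.0%), 5.01% of unshared JunB peaks (4.69 to 5.35%) and 16.5% of unshared IRF4 peaks (15.9 to 17.0%). At promoters the shares were 47.0%, 7.17% and 8.72%. BATF overlap was thus lower at promoters than elsewhere among shared JunB peaks and among unshared IRF4 peaks, where introns gave 71.9% and 19.7%. BATF peaks were as wide as IRF4 peaks and fewer.

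Most unshared IRF4 peaks at promoters were also listed in Junb-deficient cells. Of the 3682, 75.1% overlapped an IRF4 peak there (73.7 to 76.5%), against 53.5% of unshared IRF4 peaks in introns and 52.6% of those in intergenic sequence. The odds ratio of promoter against other peaks was 2.66 (2.45 to 2.88), and 2.65 (2.43 to 2.88) within strata of place. Shared IRF4 peaks had a counterpart in 83.3% of cases at promoters and 75.3% in introns (odds ratio of promoter against other peaks 1.59, 1.31 to 1.95). Within strata of place their ratio was 2.24 (1.82 to 2.76), with an interval that overlapped that of unshared IRF4 peaks. Of the unshared JunB peaks, 5.57% overlapped an IRF4 peak of Junb-deficient cells. With 1 library per genotype no test between genotypes was made.

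Genes were assigned by promoter peaks. Of 22367 protein-coding genes, 4014 had an unshared IRF4 peak at a promoter (17.9%), 789 a shared peak (3.53%) and 556 an unshared JunB peak (2.49%), 5165 in all. Of the genes with a shared promoter peak 6.84% also had an unshared IRF4 peak, which were 1.35% of the latter, and of those with an unshared JunB peak 17.3% also had an unshared IRF4 peak, which were 2.39% of the latter. The 17.3% was near the 17.9% of all genes and the 6.84% was below it. IRF4 peaks were kept at least 1224 bp apart, however, which is longer than the promoter window. A TSS with a shared peak thus had little room for another IRF4 peak, and the 6.84% cannot show that the genes differ. Start sites were CpG-rich for 77.7% of the genes with an unshared IRF4 promoter peak (76.4 to 79.0%), 70.8% of those with a shared peak and 60.1% of those with an unshared JunB peak, against 47.6% of all genes. A head-to-head neighbour was found for 21.7%, 17.5% and 15.6% of these genes, against 10.3% of all.

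More genes were reached when each peak was given to its nearest TSS within 100 kb. Shared peaks then fell to 5835 genes (26.1%), unshared JunB peaks to 6577 (29.4%) and unshared IRF4 peaks to 9726 (43.5%). All 3 classes met at 2425 genes. Of the genes with unshared IRF4 peaks 46.1% had no other class, compared with 29.7% of those with unshared JunB peaks and 20.1% of those with shared peaks.

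Effector Treg genes had mostly peaks that JunB took part in. Of 30 genes, 7 had a shared promoter peak (23.3%), 5 an unshared JunB peak (16.7%) and 2 an unshared IRF4 peak (6.67%), against 3.53%, 2.49% and 17.9% of all protein-coding genes. Shared promoter peaks lay 91 bp before a TSS of Ctla4, which encodes an inhibitory receptor, 141 bp before that of Il2ra, the high-affinity IL-2 receptor chain, 106 bp before that of Tigit, a co-inhibitory receptor, and 101 bp before that of Gzmb. Gata3, Ikzf4 and Tnfrsf9 had one as well. No IRF4 peak of Junb-deficient cells overlapped those of Ctla4 and Il2ra, whereas one did at the other 5. Of all shared JunB promoter peaks 79.8% overlapped one, so 5 of 7 was near the share of the class. Overlap was counted with the JunB peak, which was 151 bp wide. Unshared JunB peaks lay at Ccr8, a chemokine receptor of effector Treg cells, Cd44, Icos, Maf and a more upstream TSS of Ctla4. Unshared IRF4 peaks lay at Entpd1, which encodes the ATP-degrading enzyme CD39, and at Rora. None of these 14 peaks held an AICE, which was rare at promoters in general (3.21% of shared, 1.10% of unshared JunB and 0.489% of unshared IRF4 promoter peaks). Of the 7 shared ones 2, those of Gzmb and Tnfrsf9, held an AP-1 match, near the 28.6% of all shared JunB promoter peaks.

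Within 100 kb, 28 of the 30 effector Treg genes had the nearest TSS to at least 1 peak. Shared peaks reached 23 genes (76.7%), unshared JunB peaks 20 (66.7%) and unshared IRF4 peaks 21 (70.0%), against 26.1%, 29.4% and 43.5% of all protein-coding genes. Icos, a costimulatory receptor that sustains effector Treg cells, was nearest to 10 shared, 4 unshared JunB and 0 unshared IRF4 peaks. Ctla4 had 9, 9 and 4. Ikzf2, which encodes the Treg transcription factor Helios, had 3, 9 and 3. Il10, an inhibitory cytokine gene, had 4, 6 and 1, and Prdm1, which encodes Blimp-1, had 4, 8 and 5. Foxp3 itself was nearest to a single peak, an unshared IRF4 peak.

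Genes of resting T cells were mostly reached by peaks outside promoters. Of 12 genes, S1pr1, which encodes the receptor for exit from lymphoid organs, had a shared promoter peak, Ccr7, a homing receptor gene, had an unshared JunB peak, and none had an unshared IRF4 peak. These promoter shares of 8.33%, 8.33% and 0% rest on 1 gene or none, beside 3.53%, 2.49% and 17.9% of all genes. By nearest TSS, shared peaks reached 11 genes (91.7%), unshared JunB peaks 12 (100%) and unshared IRF4 peaks 10 (83.3%), where all genes gave 26.1%, 29.4% and 43.5%. Bach2, a repressor that keeps T cells from differentiating, was nearest to 20 shared, 22 unshared JunB and 12 unshared IRF4 peaks. Foxp1, a quiescence factor, had 17, 12 and 3.

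T cell receptor signalling genes were divided among the classes. Of 25 genes, 4 had a shared promoter peak (16.0%), 2 an unshared JunB peak (8.00%) and 6 an unshared IRF4 peak (24.0%), against 3.53%, 2.49% and 17.9% of all protein-coding genes. The last share was near its background. Among the genes with shared peaks were Cd3g, which encodes a chain of the receptor complex, and Cd2, which encodes an adhesion receptor, with shared peaks 77 and 144 bp before the TSS. Cd28, the costimulatory receptor, had an unshared JunB peak 22 bp before its TSS, and Lcp2, which encodes the adaptor SLP-76, had an unshared JunB peak at one TSS and an unshared IRF4 peak at another. Zap70, Bcl10, Malt1, Nfatc2 and Ptprc, which encodes the phosphatase CD45, had unshared IRF4 peaks. Prkcq, which encodes protein kinase C theta, was nearest to 6 shared, 9 unshared JunB and 8 unshared IRF4 peaks.

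Interferon-stimulated genes carried unshared IRF4 peaks. Of 39 genes, 18 had one at a promoter (46.2%), 6 had a shared peak (15.4%) and 1 an unshared JunB peak (2.56%), where all genes gave 17.9%, 3.53% and 2.49%. The 18 unshared IRF4 peaks held an ISRE in 12 cases, as in the Stat2, Rsad2 and Bst2 windows, where 4.75% of all unshared IRF4 promoter peaks did. Of these 18 peaks 16 had a counterpart in Junb-deficient cells and 1 overlapped a BATF peak, where all unshared IRF4 promoter peaks gave 75.1% and 8.72%. Isg15, a ubiquitin-like modifier gene, had its peak 49 bp before the TSS, and Rtp4 had one 40 bp before it. Psmb9 and Tap1, genes of an immunoproteasome subunit and a peptide transporter that are transcribed divergently, shared 1 peak. Mx1 and Mx2, which encode antiviral GTPases, had peaks 87 and 893 bp before the TSS.

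The 6 shared peaks of interferon-stimulated promoters lay at Gbp2, Gbp3, Ifit1, Irf9, Oasl2 and Zbp1. ISRE matches were held by 4 of them, an AP-1 match by 1, that of Gbp3, and 4 overlapped a BATF peak. All shared JunB promoter peaks gave 6.69% for ISRE, 28.6% for AP-1 and 47.0% for BATF. Ifit1, whose product binds viral RNA, had the peak 83 bp before its TSS, and Zbp1, a sensor of unusual nucleic acids, 64 bp before it. Irf9, a subunit of the ISGF3 complex, had its peak 48 bp after the TSS and no ISRE match. Of the 9 genes of the IRF family, Irf2, Irf3, Irf5 and Irf8 had unshared IRF4 promoter peaks (44.4%) and Irf9 the shared one (11.1%). All protein-coding genes gave 17.9% and 3.53%. Irf4 had no peak at its promoter and was nearest to 7 shared, 8 unshared JunB and 4 unshared IRF4 peaks. Of the 12 AP-1 family genes, Fosb had a shared promoter peak and Fos an unshared IRF4 peak. These were 8.33% each, against 3.53% and 17.9% of all protein-coding genes. Batf was nearest to 1 shared and 3 unshared IRF4 peaks, and Junb to 1 unshared JunB peak.

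Genes that nearly all cells use had unshared IRF4 promoter peaks more often than the 17.9% of all protein-coding genes. These were found at 44 of 90 oxidative phosphorylation genes (48.9%), 35 of 82 ribosomal protein genes (42.7%) and 15 of 39 proteasome genes (38.5%). Shared peaks were found at 5, 11 and 3 of them (5.56%, 13.4% and 7.69%, against 3.53% of all genes), and unshared JunB peaks at 5, 6 and 3 (5.56%, 7.32% and 7.69%, against 2.49%). The unshared IRF4 peaks were CpG-rich in 37 of 44, 28 of 36 and 12 of 15 cases, where all unshared IRF4 promoter peaks gave 67.0%. They held an ETS match in 7, 7 and 4 cases, near the 19.3% of the class. They overlapped an IRF4 peak of Junb-deficient cells in 37, 33 and 11 cases, where the class gave 75.1%. Start sites of such genes are commonly CpG-rich, and the part of base composition in these counts was not tested.

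**Figure D5:**
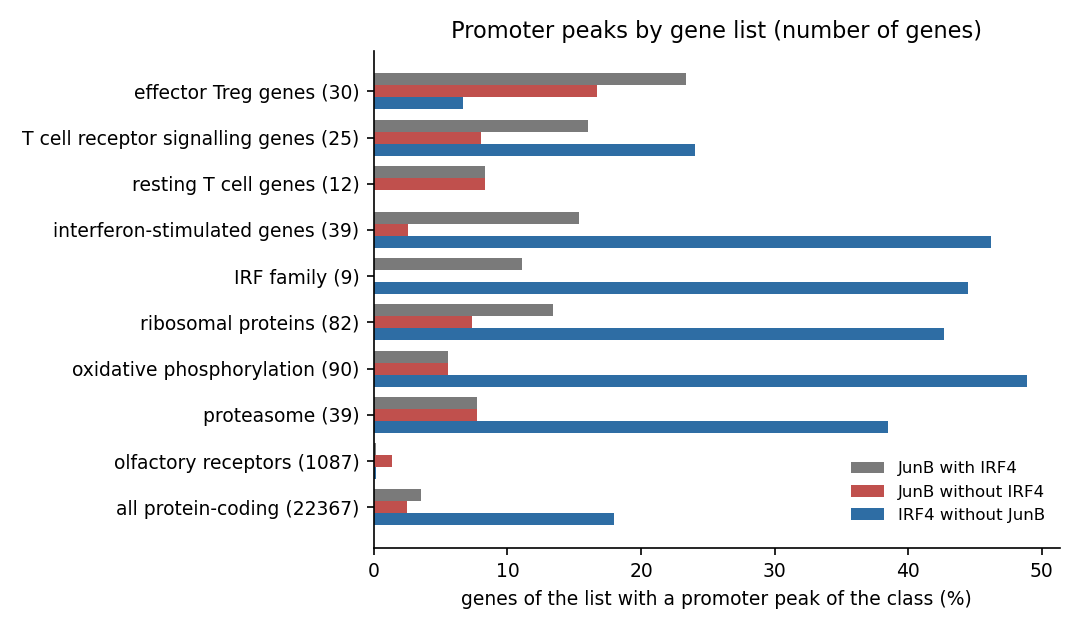
Share of the genes of each list (%) with a promoter peak of each class, with the number of genes in parentheses and all protein-coding genes at the bottom. Unshared IRF4 peaks reach 48.9% of oxidative phosphorylation genes and 46.2% of interferon-stimulated genes but 6.67% of effector Treg genes, where shared peaks reach 23.3%.

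Olfactory receptor genes, which are silent in T cells and stand in multicopy clusters, were set beside these lists. Of 1087 genes, 15 had an unshared JunB promoter peak (1.38%), 2 a shared peak and 2 an unshared IRF4 peak (0.184% each), all below the background. By nearest TSS, unshared JunB peaks reached 154 of them (14.2%), unshared IRF4 peaks 39 (3.59%) and shared peaks 23 (2.12%). These too were below the 29.4%, 43.5% and 26.1% of all protein-coding genes. Of the 15 unshared JunB promoter peaks 1 held an AP-1 match and 0 overlapped a BATF peak, where the class gave 16.4% and 7.17%.

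The labelled cell type was checked against peaks at marker genes, which describe binding and not expression. Of 6 Treg markers, 5 were nearest to shared peaks, 5 to unshared JunB peaks and 3 to unshared IRF4 peaks, where all genes gave 26.1%, 29.4% and 43.5%. Of 7 T cell markers, 5 were nearest to at least 1 peak, and Cd4 and Cd5 to none. Since 13658 of all 22367 protein-coding genes were nearest to a peak, that count does not mark the cell type. No promoter peak of any class was listed at the 8 B cell markers or the 2 CD8 T cell markers, although Ebf1 was nearest to 9 shared, 2 unshared JunB and 5 unshared IRF4 peaks. Of 7 myeloid markers Itgam and Mpo had unshared IRF4 promoter peaks (28.6%). All protein-coding genes gave 17.9% for these, 3.53% for shared and 2.49% for unshared JunB promoter peaks. Among the 7 T cell markers 2 had a promoter peak, so promoter counts in lists this short do not mark the cell type either.

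Genes with provisional symbols (Gm or Rik) were among those nearest to most unshared JunB peaks, which was not so for the other classes. For shared peaks the leading genes were Bach2 (20), Inpp4b (18), Foxp1 (17), Akap13 (16) and Lpp (15). Inpp4b encodes a phosphoinositide phosphatase, Akap13 a kinase anchor protein and Lpp an adhesion protein. For unshared IRF4 peaks they were Pde4d (14), a cyclic AMP phosphodiesterase gene, Arhgap26, Ext1 and Zmiz1 (13 each) and Bach2 (12). Zmiz1, a coactivator gene of the PIAS-like family, had 3 shared and 0 unshared JunB peaks, and Arhgap26, which encodes a GTPase-activating protein, had 13 shared and 3 unshared JunB peaks. For unshared JunB peaks they were Gm15319 (35), C130026I21Rik (26), Inpp4b (25), Bach2 (22) and 4930572O03Rik (19). Gm15319, C130026I21Rik and 4930572O03Rik had 1, 0 and 0 unshared IRF4 peaks and 2, 0 and 0 shared peaks.

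The first-listed unshared JunB promoter peaks were also mostly at genes with provisional symbols. The 5 unshared JunB promoter peaks that stood first were those of Gm10722, Gm10718, Gm10720 and Gm10716, predicted genes within 30 kb at the start of chromosome 9, and of Eef1a1, a translation elongation factor gene. The 3 first-listed intergenic ones lay next to each other, 361 kb from Pgk2 on chromosome 17. Shared promoter peaks opened with Gm10718, Glod4, Wdr26, Ehd1 and Olfr530, and shared intergenic peaks with 1700012B15Rik, Gm5614 and Gm11168. Unshared IRF4 promoter peaks opened with Sfi1, Gtf3c6, Ptprc, Refbp2 and Socs1, the feedback inhibitor gene of cytokine signalling, whose peak lay 94 bp before the TSS and held an ISRE. Their intergenic peaks opened near Rap1b, Timd2 and S1pr1. Leaving out peaks within 100 kb of the 20 first-listed peaks of any list, an alternative added after seeing the data that removed 310 JunB and 235 IRF4 peaks, gave promoter odds ratios of 0.525 and 3.97.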

How the data were processed

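Sequencing reads were aligned to mm9 with Bowtie2, with reads of 1 best position kept, and peaks were called in each library by itself with HOMER, version 4.8 in the submitters' processing notes, at a false discovery rate of 0.001 and 1 tag per bp. The deposited lists give position, strand and a score, which the authors left at 1 for every peak and which was not used. Tag totals and calling settings came from the file headers, and depth per peak was not listed. Positions were counted from 1. Peaks were annotated by their centre with protein-coding transcripts of the GENCODE annotation of mm9 (promoter, else exon, else intron, else intergenic). Shares have exact binomial (Clopper-Pearson) intervals and odds ratios Woolf intervals, with Mantel-Haenszel estimates over 20 strata of place. No test across genes or between libraries was made. Motifs were searched on both strands in mm9. Genes named were members of fixed lists, the 5 genes nearest to most peaks, and the genes of the 5 first-listed promoter and 3 first-listed intergenic peaks of each class, with exceptions stated in the text. Members, lists and rules were chosen with earlier results of these data known. For printed sequences, peaks on chromosomes 18 and Y or touching an exon were passed over. For the first set, peaks near the start of a chromosome or within 100 kb of the 20 first-listed peaks of any list were passed over too. These choices were made after positions were seen, and copy number was not tested. By these rules the first-listed promoter peaks were those of Olfr530, Utrn and Refbp2, whose windows held no match to the motifs printed in capitals. Procedures were tested on simulated data. Python 3.11.15, NumPy 2.4.6, pandas 2.3.3, SciPy 1.17.1 and matplotlib 3.10.9 were used. RNA-seq and the repeat ChIP-seq experiments were not analysed here, and some genes of the lists, though counted, are not reported here by name.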

Additional observations from a re-analysis of the deposited data

How the results depend on the processing

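Of 184 recomputed values for 26 results, 156 kept their direction and their side of the criterion, an interval that excludes 1 or, for shares and counts, the interval or 1.5-fold range of the value reported. For unshared against shared JunB peaks the first-listed 50% of the lists gave 0.965 for promoters, 1.11 for ETS and 1.61 for CpG-rich sequence. Exchanging BATF and IRF4 as in the antibody field gave 1.14, 1.14 and 2.06 for the same, 0.980 for exons and, in the IRF4 list, 0.930 for intergenic sequence. Strata of place gave 1.16 for exons and 1.08 for clustering in the JunB list, and 0.935 and 1.05 in the IRF4 list. Clusters at 5 kb gave 1.03 in the JunB list. Promoters within 2500 bp gave exon ratios of 0.980 and 0.920, and 1807 genes with a shared and 1640 with an unshared JunB promoter peak. The promoter share of JunB peaks was 12.03% within 2500 bp, 5.12% with all annotated genes and 4.01% in the first-listed 50%. That of IRF4 peaks was 22.6%, 15.1% and 10.7%, and 5.68% for the list titled BATF. The share of unshared IRF4 promoter peaks with a counterpart in Junb-deficient cells was 54.5% with centres within 100 bp, 68.2% with 50% of the shorter peak covered, 69.2% within 2500 bp and 65.4% in the first-listed 50%. The cause of these shifts was not tested. No paired analysis was possible because each factor had 1 library. Without peak heights, strong and weak peaks could be told apart only by place in the list, whose order is not named.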

Other observations

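The X chromosome, 6.33% of the genome, held 870 unshared JunB peaks (5.13%, 4.802 to 5.472%), 259 shared peaks (2.04%, 1.80 to 2.30%) and 444 unshared IRF4 peaks (2.39%, 2.18 to 2.62%). The density was 5.37, 1.598 and 2.74 peaks per Mb. The sex of the mice was not given in the labels used here.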
